A study of Mus musculus with 2 samples.

Results

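The selectin-low endothelial cells are 53 cells of the orthodontic tooth movement (OTM) library and 3 cells of the control library, 56 of the 1760 cells kept in both libraries. They were selected on their own counts: at least 200 genes and at most 20% mitochondrial UMIs (unique molecular identifiers, 1 per captured transcript), at least 10 UMIs summed over Pecam1, Cdh5, Emcn, Flt1 and Egfl7 with 3 or more of these 5 genes detected, S100a8 and S100a9 below 1% of UMIs, and fewer than 3 UMIs of P-selectin (Selp) and E-selectin (Sele) together. Endothelial cells of the same gate with 3 or more selectin UMIs, called selectin-positive here, numbered 150 in the OTM and 12 in the control library. Because the selectins and endothelial genes chose the cells, differences between selectin-low and selectin-positive cells are given as a description, with no test.

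Single cells of the periodontal ligament were profiled by 3′ droplet sequencing from 8-week-old male C57BL/6J mice. The OTM library pooled tissue of 5 mice from the upper left first molar, which had been pulled mesially with 10 g for 6 days, and the control library pooled the right side of 5 mice, unloaded according to the series' design text. The treatment field carries the same text on the force for both samples, so the groups rest on the sample titles and that design text. Tissue adhering to extracted roots and to the sockets was digested with collagenase and then trypsin. With 1 library per group and no link from cells to animals, a difference between OTM and control is a difference between these 2 libraries; intervals below are 95% and cover counting error only.

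Endothelial cells line blood and lymphatic vessels, and their gene programs differ along the vascular tree. Arterial cells carry Notch targets and the gap junction proteins connexin 37 and connexin 40, while postcapillary venules store P-selectin in Weibel-Palade bodies and make E-selectin, ICAM-1 and VCAM-1 on inflammatory activation, which lets rolling leukocytes stop and cross. Tip cells lead vascular sprouts and release Esm1, Apln and Angpt2. The periodontal ligament is rich in vessels and ties the tooth root to its bony socket, where osteoclasts and osteoblasts remodel bone when a tooth is moved.

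The libraries held 1539 OTM and 369 control barcodes, of which 1412 and 348 were kept, with a median of 19583 UMIs per kept OTM cell and 14877 UMIs per kept control cell. About 5000 cells per sample were targeted, according to the labels. No barcode was shared between the libraries. A doublet caller (Scrublet) marked 8 OTM and 2 control cells, which were kept; 2 of the 8 were selectin-low endothelial cells.

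The 53 OTM members held 1525495 UMIs, with a median of 21416 per cell (range 2526 to 107349), 4828 genes and 2.75% mitochondrial UMIs. The 150 selectin-positive OTM cells were close to them in depth and quality, with medians of 22981.5 UMIs, 5033 genes and 2.78% mitochondrial UMIs. The 3 control members had 31794, 34774 and 15484 UMIs. Of the 53 OTM members, 33 had no selectin UMI, 13 had 1 and 7 had 2. Just outside the limit, 7 OTM endothelial cells had 3 selectin UMIs, 1 had 4 and 2 had 5, while the selectin-positive median was 61.5 and the highest value 875. In the control library 2 members had no selectin UMI and 1 had 1, and the nearest selectin-positive cells had 4 and 5. At the endothelial limit, both members with 10 to 12 UMIs of the 5 genes were OTM cells with 11, and 11 OTM and 4 control cells lay just outside with 7 to 9.

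Levels below are UMIs summed over the cells of a group, scaled to a total of 1000000 UMIs per group (CPM); 3′ counting gives 1 UMI per captured molecule whatever the transcript's length. The genes of the rule are high in the members by selection and low in the 1125 non-endothelial OTM cells (fewer than 3 UMIs of the 5 genes), and they are given as a description. Pecam1, the junctional adhesion protein CD31, was detected in 52 of 53 OTM members at 1028 CPM, against 1104 CPM in selectin-positive cells. Cdh5, which encodes VE-cadherin, was detected in 52 members at 891 CPM, against 1034 CPM in selectin-positive cells. Flt1, the VEGF receptor 1, stood at 1066 CPM in selectin-low and 1203 CPM in selectin-positive cells, and Egfl7, a matrix protein secreted by endothelium, at 859 and 615 CPM. The label was set against the 12 pan-endothelial markers that the rule did not use. They summed to 4026 CPM in selectin-low, 3811 CPM in selectin-positive and 40.3 CPM in non-endothelial OTM cells, and each of the 12 stood higher in the members than in non-endothelial cells. Kdr, the VEGF receptor 2, was at 302 CPM in the members and 0.721 CPM in non-endothelial cells, and Erg, a transcription factor of endothelium, at 206 and 5.24 CPM. In cells thinned to 5000 UMIs, Kdr had a UMI in 72.5% of 51 selectin-low, 73.3% of 146 selectin-positive and 0.518% of 966 non-endothelial OTM cells.

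Selectin-low endothelial cells made up 3.75% of kept OTM cells (53 of 1412; Clopper-Pearson interval 2.82 to 4.88%) and 0.862% of kept control cells (3 of 348; 0.178 to 2.50%). The difference was 2.89 percentage points (Newcombe interval 1.01 to 4.21). Selectin-positive cells were likewise a larger share of the OTM library, at 10.6% against 3.45% in the control library. Among endothelial cells alone, the selectin-low share was 26.1% in OTM (53 of 203; 20.2 to 32.7%) and 20% in control (3 of 15; 4.33 to 48.1%), a difference of 6.11 points whose interval, -22.6 to 23.1, spans 0. A difference in the selectin-low share among endothelial cells was therefore not detectable with 15 control endothelial cells. With every cell thinned to 5000 UMIs before the gate was applied, with shallower cells left out and a minimum of 5 UMIs of the 5 endothelial genes, 78 of 1236 OTM and 6 of 265 control cells were selectin-low, a difference of 4.05 points. The part of tissue digestion in these shares was not tested.

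The 20 most abundant genes of the OTM members, without mitochondrial and ribosomal protein genes, mixed housekeeping transcripts with vessel wall genes. Vim, the intermediate filament vimentin, stood at 11946 CPM, against 2945 CPM in non-endothelial OTM cells. Igfbp7, a secreted protein of the vessel wall also known as angiomodulin, reached 4981 CPM in the members and 848 CPM in non-endothelial cells. Col4a1, a collagen IV chain of basement membranes, stood at 2441 CPM against 87.0 CPM, and Tm4sf1, a tetraspanin-like membrane protein of endothelium, at 2403 CPM against 128 CPM. Sparc, a matrix glycoprotein of bone and connective tissue, went the other way, with 4369.7 CPM in members and 12099.9 CPM in non-endothelial cells. Others were Malat1, Tmsb4x, Eef1a1, Tpt1, Ptma, Ubb, Actb, Gm42418, S100a6, Ppia, Hspa8, Hsp90ab1, Actg1 and Fau, led by Malat1 at 12182 CPM.

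The members were not uniform. Leiden clustering of the 56 cells gave 4 clusters, described here by number and by their leading genes, which the clustering itself used. Cluster 0 held 17 OTM and 2 control cells (32.1% of OTM members), with a median of 19392 UMIs. Its leading genes by fold were Gbp5, Rsad2, Ifi47, Neurl3, Rtp4, Cish, Atp2a3, Eps8l2, Isg15 and Cd274, several of them interferon-induced. Gja4, which encodes connexin 37 of arterial gap junctions, was detected in 18 of its 19 cells at 473 CPM, and Cldn5, the tight junction protein claudin 5, in 19 of 19 at 1155 CPM. The 16 arterial markers summed to 4306 CPM in cluster 0 and 1449 CPM in the other members. NF-kB feedback genes summed to 7524 CPM against 2930 CPM elsewhere, and interferon genes to 3801 CPM against 1839 CPM.

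Cluster 1 held 18 OTM cells (34.0%) and no control cell, with a median of 24405.5 UMIs. Its leading genes were Ube2c, Cdk1, Ccna2, Apln, Cdca8, Arhgap22, Akr1b8, Birc5, Fbxo5 and Aurkb, most of them mitotic. All 9 OTM members with Apln, the ligand of the apelin receptor, were in this cluster, at 378 CPM. Tip cell and angiogenic markers summed to 5146 CPM in cluster 1 and 2109 CPM in the other members, and cell cycle genes to 4148 CPM against 1225 CPM. Mki67, a nuclear protein of cycling cells, had a UMI in 5 of the 18 cells, and Top2a in 4. Igfbp3, which binds insulin-like growth factors, stood at 1111 CPM there, against 312, 145 and 348 CPM in clusters 0, 2 and 3.

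Cluster 2 held 11 OTM cells (20.8%) and 1 control cell and was the shallowest, with a median of 12988.5 UMIs. It was led by Lbp, Hmcn1, Gm11290, Aplnr, Clec14a, Kcnn3, Tgfbr3, Flrt2, Fam171a1 and Plekhg1. Lbp, which encodes the lipopolysaccharide-binding protein, was detected in 8 of its 12 cells, and Aplnr, the apelin receptor, in 7 of 12 at 327 CPM. Nr2f2, the venous and lymphatic transcription factor COUP-TFII, stood at 407 CPM in cluster 2 and 27.6 CPM in cluster 0. The 1 control cell of cluster 2 held 37 of its Nr2f2 UMIs and 13 of its 29 Lbp UMIs, but no Aplnr UMI. Lymphatic markers, without Ccl21a, summed to 1047 CPM in cluster 2. The Prox1, Reln and Mmrn1 counts behind that sum came almost entirely from its 1 control cell, described with the control cells below. One OTM cell of this cluster was among the 2 cells at the endothelial limit: it had 55201 UMIs, 4 of Pecam1, none of Cdh5 and 2 of Ptprc, and macrophage and monocyte markers at 9.06 per 10000 UMIs.

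Cluster 3 held 7 OTM cells (13.2%) and no control cell, with the highest median, 54642 UMIs. Its leading genes were Rgs5, Crispld2, Adamts2, Gpc6, Tpm2, Myl9, Col6a2, Myh11, Pde3a and Prrx1. Rgs5 is a pericyte marker and Myh11 a smooth muscle myosin, and the 12 mural cell markers summed to 10825 CPM in cluster 3 against 72.4 CPM in the other members. Fibroblast markers summed to 6604 CPM against 94.7 CPM. The 17 pan-endothelial markers were all detected in cluster 3 too, at 5325 CPM against 9683 CPM elsewhere. The cluster therefore carried mural and fibroblast markers together with endothelial ones, and it held both members marked as doublets; it stays unnamed.

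**Figure D1:**
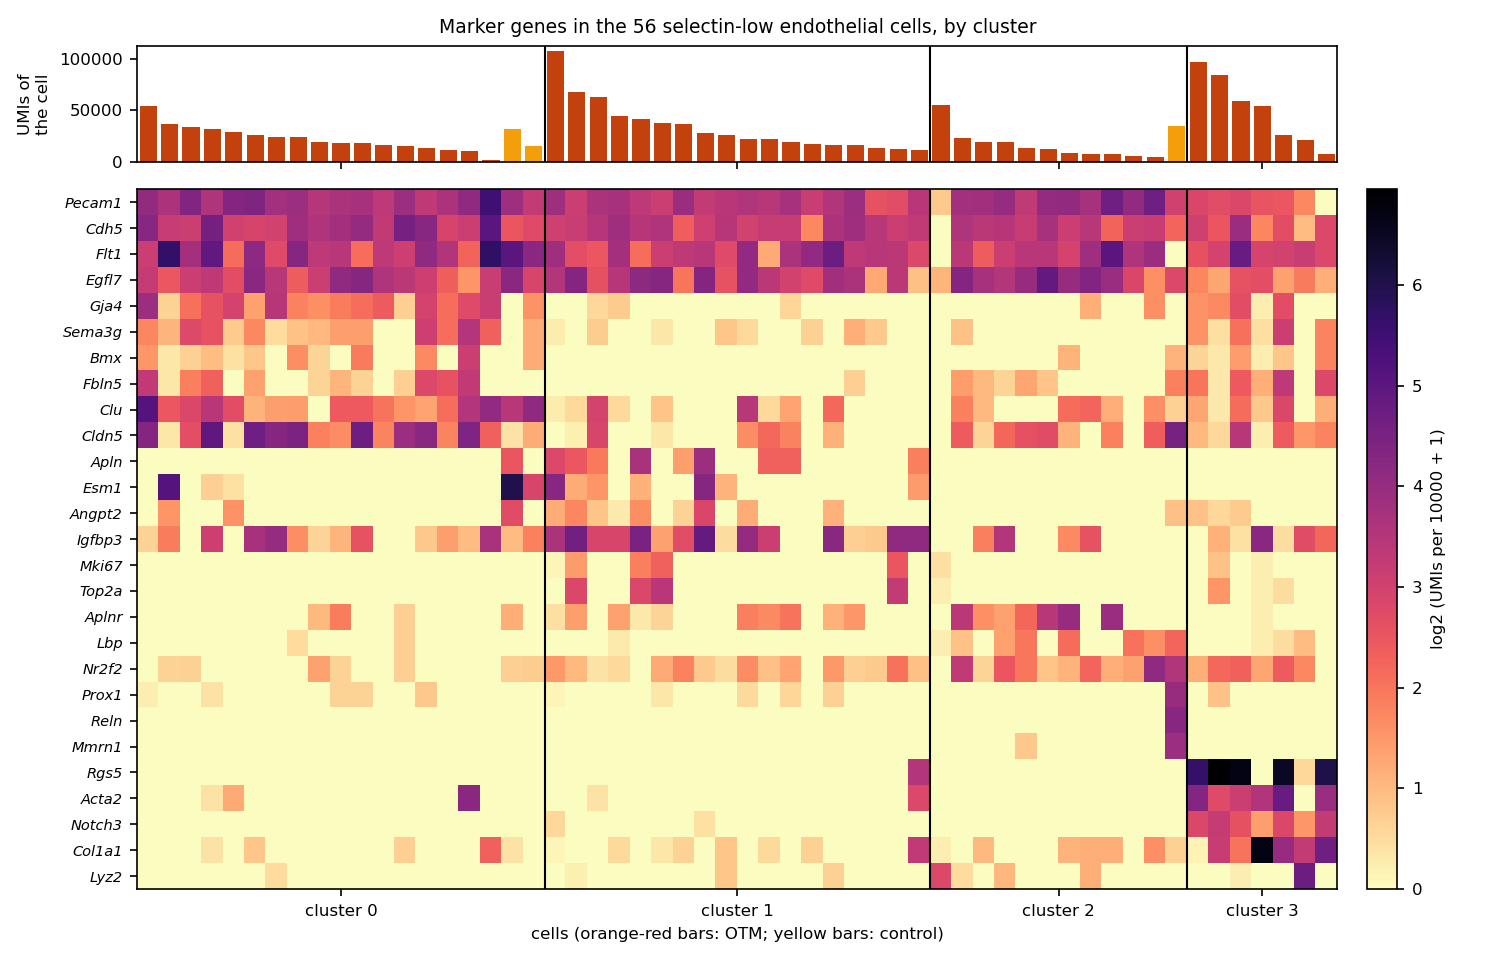
Marker genes in each of the 56 selectin-low endothelial cells, as log2 of (UMIs per 10000 UMIs of the cell + 1), with cells in columns grouped by cluster and each cell's total UMIs as bars above (orange-red OTM, yellow control). Gja4 and Clu are strongest in cluster 0, Apln in cluster 1, Aplnr and Lbp in cluster 2, and Notch3 in the 7 cells of cluster 3, while Pecam1, Cdh5, Flt1 and Egfl7 run across all 4 clusters.

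Most members had few transcripts of other cell types. Across the fibroblast, osteoblast, leukocyte, neutrophil, macrophage, mural and other non-endothelial lists, marker UMIs were at most 3.01% of any OTM member's UMIs, with a median of 0.0321%. In cluster 3 the share ran from 1.15 to 3.01%, while no member of the other clusters passed 0.658%. Ptprc, the pan-leukocyte antigen CD45, was detected in 1 of 53 OTM members, and C1qb, a complement gene of macrophages, in 1. Summed over the OTM members, neutrophil markers stood at 33.4 CPM in selectin-low and 35.3 CPM in selectin-positive cells, macrophage and monocyte markers at 134 and 179 CPM, and fibroblast markers at 1586 and 1172 CPM. Mural cell markers were far apart, at 2544 CPM in selectin-low and 271 CPM in selectin-positive cells. Comparisons below are therefore also given without the 8 selectin-low and 8 selectin-positive OTM cells in which other cell types' markers were 0.5% of UMIs or more (all 7 cells of cluster 3 and 1 of cluster 1 among the members), a choice made after seeing the data.

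**Figure D2:**
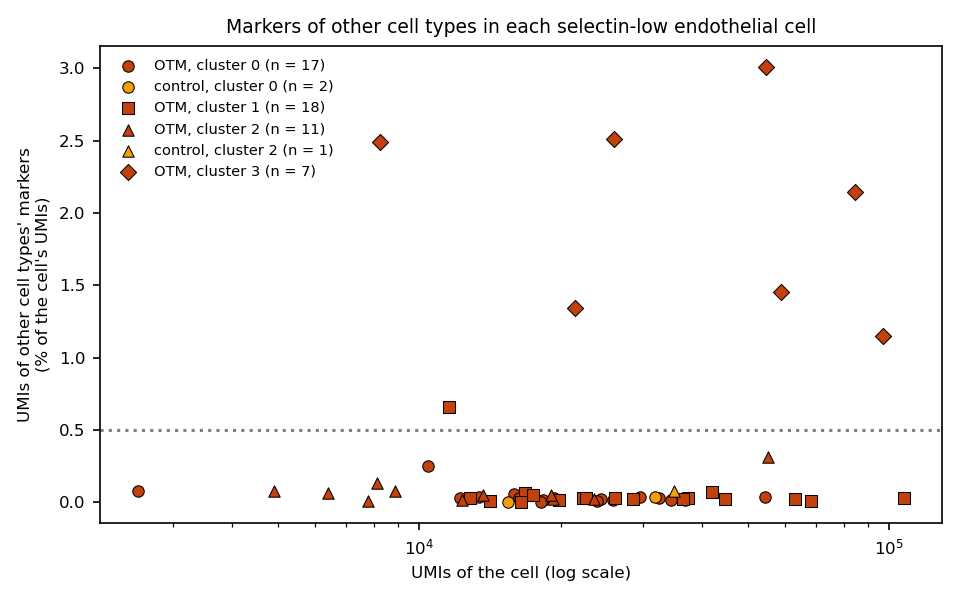
Share of each selectin-low endothelial cell's UMIs from markers of other cell types (vertical axis, percent) against its total UMIs (horizontal axis, log scale), by library and cluster. The 7 cells of cluster 3 sit between 1.15 and 3.01%, above the dotted line at 0.5%, and all but 1 of the other 49 cells sit below it.

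In the OTM library, 9286 genes could be compared between 53 selectin-low and 150 selectin-positive cells (at least 20 UMIs in the higher group, in at least 10% and at least 3 of its cells, with no cell holding over 50% of them). Of these, 443 were at least 2-fold higher in selectin-low cells (4.77%) and 413 at least 2-fold lower (4.45%), and the median log2 ratio was -0.02. Over all 11282 genes with at least 20 UMIs in both groups together, which is the base of every list median below, the median was 0.06. The conditional binomial interval lay apart from 0 for all 443 higher genes and for 317 of the 413 lower ones. The selectin-positive pool was 3.05-fold larger in UMIs, so the minimum of 20 UMIs and the 2-fold limit already fixed this for the higher genes. The 2 counts therefore give the higher genes no support over the lower ones. Without the 16 cells with markers of other types, 8696 genes could be compared, 317 of them (3.65%) at least 2-fold higher and 565 (6.50%) at least 2-fold lower. The lists shared 200 higher genes, 45.1% of the 443 and 63.1% of the 317, and 321 lower genes, 77.7% of the 413 and 56.8% of the 565. In the control library, where 3 cells face 12, 28 of the 47 higher and 64 of the 107 lower genes with at least 20 UMIs pointed the same way. No share over all genes is given beside these counts, so they are a description and no replication.

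Arterial markers had the highest median of the vascular bed lists. Of 16 genes, 11 were at least 2-fold higher in selectin-low cells and none lower, with a median log2 ratio of 1.85. Of all 9286 genes, 4.77% were higher and 4.45% lower. Without the cells carrying other types' markers, 9 of 14 genes were higher, with a median of 1.49, beside 3.65% of all 8696 genes. The summed level was 2229 CPM in selectin-low and 1180 CPM in selectin-positive cells. Gja4 (GRCm38, chr4:127311421-127314039, minus strand) had 195 CPM in selectin-low and 26.5 CPM in selectin-positive cells (log2 ratio 2.88, 2.57 to 3.19). It was detected in 27 of 53 selectin-low cells, with a median of 0.183 and a maximum of 13.8 UMIs per 10000, against 20 of 150 selectin-positive cells. As shares of cells with a UMI, Gja4 stood at 50.9% of selectin-low, 13.3% of selectin-positive and 2.22% of non-endothelial cells (median depths 21416, 22981.5 and 18731 UMIs), and at 35.3%, 6.16% and 1.04% once thinned to 5000 UMIs.

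Bmx (GRCm38, chrX:164192842-164258193, minus strand), a TEC-family kinase of large arteries, had 64 UMIs in 18 selectin-low cells and 15 UMIs in 7 selectin-positive cells (log2 ratio 3.70, 2.87 to 4.62). Sema3g, a semaphorin of arterial endothelium, had 117 CPM in selectin-low and 17.4 CPM in selectin-positive cells (log2 ratio 2.75, 2.37 to 3.15). Fbln5, an elastic fibre protein, was at 135 against 18.1 CPM, and Nebl, which encodes nebulette, at 91.8 against 9.03 CPM. Hey1, a Notch target, was detected in 23 of 53 selectin-low and 32 of 150 selectin-positive cells (log2 ratio 2.14). The remaining genes past 2-fold were Gja5 (2.66), Alpl (4.68), Clu (1.57), Fbln2 (1.16) and Stmn2 (1.15). The ratio of Fbln2 was under 2-fold with selectins counted per 10000 UMIs (0.97), as a mean over cells (0.88) and when thinned (0.42). Ratios when thinned, here and below, rest on groups drawn anew from thinned cells, 78 selectin-low and 118 selectin-positive in OTM. Detection shares once thinned are of the original groups. Gja5 and Alpl leaned on cluster 3: their levels there were 59.9 and 183 CPM, and Alpl, alkaline phosphatase, also stood at 295 CPM in non-endothelial cells. Without the cells carrying other types' markers, the log2 ratio of Alpl was 4.21 and that of Gja5 was 1.19 with an interval of -0.29 to 2.57.

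Not every arterial gene differed by that much. Sox17, a transcription factor of arterial specification, was at 168 CPM in selectin-low and 118 CPM in selectin-positive cells (0.50). Dll4, a Notch ligand shared by arterial and tip cells, had a log2 ratio of 0.46. Efnb2 (0.09), Jag1 (0.05) and Mecom (-0.23) were within 0.25 of 0. Gja4 and Sema3g were seen together in 21 of the 53 OTM members, of the 27 with Gja4 and 30 with Sema3g, and 5 of the 7 cells with Gja5 also had Gja4.

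**Figure D3:**
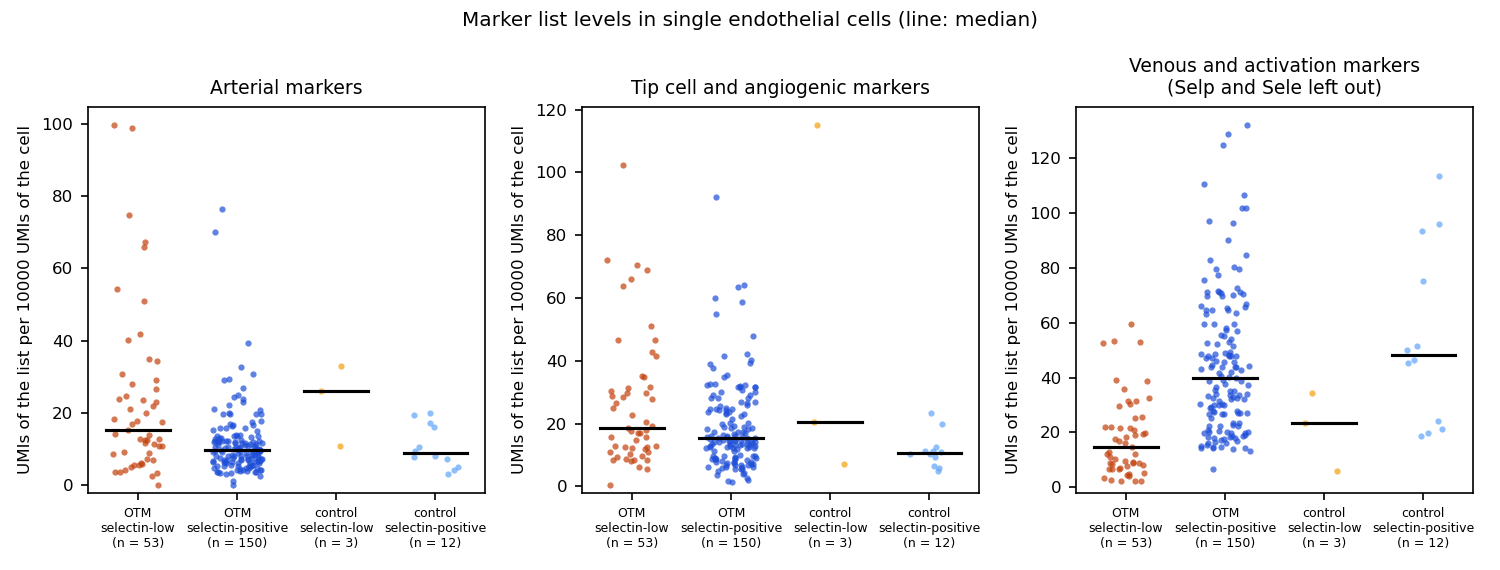
UMIs of the arterial, tip cell and venous marker lists per 10000 UMIs in every endothelial cell, in 4 groups: OTM selectin-low (53 cells), OTM selectin-positive (150), control selectin-low (3) and control selectin-positive (12); lines are medians. Arterial medians are 15.3 and 9.74 in OTM selectin-low and selectin-positive cells and venous medians, with Selp and Sele left out, 14.6 and 40.0, and the single cells of the groups overlap in all 3 panels.

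Cell by cell, the groups overlapped. The arterial list ran from 0 to 99.6 UMIs per 10000 in OTM selectin-low cells, with a median of 15.3, and from 0 to 76.3, median 9.74, in OTM selectin-positive cells. The tip cell list had medians of 18.5 and 15.3 and maxima of 102 and 92.2. The venous list, with Selp and Sele left out, had medians of 14.6 and 40.0 UMIs per 10000.

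Tip cell and angiogenic markers summed to 3155 CPM in selectin-low and 2159 CPM in selectin-positive cells. Among 17 comparable genes 6 were higher by 2-fold or more and none was lower (median log2 ratio 0.45), and 6 were higher without the cells carrying other types' markers (median 0.62). Of all 9286 genes, 4.77% were higher and 4.45% lower, and without those cells 3.65% and 6.50% of 8696 genes. Esm1 (GRCm38, chr13:113209659-113218098, plus strand), the secreted proteoglycan endocan, had 404 UMIs in 10 of 53 selectin-low cells and 24 UMIs in 8 of 150 selectin-positive cells (log2 ratio 5.68, 5.09 to 6.34). One cell held 47.8% of those 404 UMIs. Apln (GRCm38, chrX:48025146-48034853, minus strand) had 230 UMIs in 9 selectin-low cells and 122 in 26 selectin-positive cells (log2 ratio 2.52, 2.20 to 2.85), so the detecting share was 17.0% against 17.3% while the CPM level was higher. Thinned to 5000 UMIs, Apln was seen in 15.7% of selectin-low, 8.22% of selectin-positive and 0.725% of non-endothelial cells.

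Angpt2, the Tie2 antagonist that loosens vessels, stood at 64.9 CPM in selectin-low and 19.1 CPM in selectin-positive cells (1.76). Pgf, placental growth factor, stood at 267 against 114 CPM (1.23), and was detected in 26 of 53 against 52 of 150 cells. Adm, the vasodilator adrenomedullin, had a log2 ratio of 1.39, but 0.87 without the deepest cell of each group, 0.62 in cells with no selectin UMI, 0.32 as a mean over cells and 0.28 when thinned. Unc5b, a netrin receptor, had a log2 ratio of 1.76. The most abundant member of the list, Igfbp3, was at 627 against 369 CPM (0.77). Pdgfb, which recruits pericytes, differed little (-0.09). Apln and Esm1 were detected together in 6 OTM members, Apln and Gja4 in 2 and Esm1 and Gja4 in 4, of 9 cells with Apln, 10 with Esm1 and 27 with Gja4.

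Venous and activation markers were lower. Without the rule genes Selp and Sele, they summed to 1506 CPM in selectin-low and 4074 CPM in selectin-positive cells, and among 13 comparable genes 8 were lower by 2-fold or more and none was higher (median log2 ratio -1.17). Of all 9286 genes, 4.45% were lower and 4.77% higher. The cells were chosen on Selp and Sele, which belong to this list, so the counts are a description. Selp (GRCm38, chr1:164115264-164150026, plus strand) and Sele (chr1:164048234-164057677, plus strand) had log2 ratios of -8.15 and -6.94 by selection. Ackr1 (GRCm38, chr1:173331886-173333750, minus strand), the Duffy chemokine receptor of venular endothelium, had 10 UMIs in 3 of 53 selectin-low cells and 945 UMIs in 68 of 150 selectin-positive cells (log2 ratio -4.95, -6.02 to -4.07). Once thinned, it was seen in 0 of 51 selectin-low cells, 32.9% of selectin-positive cells and 1.45% of non-endothelial cells. A count of 0 of 51 allows up to 5.88% of such cells to have an Ackr1 UMI at that depth, and is no limit on cells expressing the gene.

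Il1r1, the interleukin 1 receptor, had 62.3 CPM in selectin-low and 333 CPM in selectin-positive cells (log2 ratio -2.42, -2.73 to -2.12), and its ratio was -3.57 without the cells carrying other types' markers. Icam1, the leukocyte integrin ligand, had 443 CPM in selectin-low and 1420.1 CPM in selectin-positive cells (log2 ratio -1.68, -1.80 to -1.57) and was still detected in 44 of 53 selectin-low cells. Lrg1, a leucine-rich glycoprotein induced in inflamed vessels, stood at 128 against 582 CPM (-2.19), and Lbp had 23 UMIs against 344 UMIs (-2.29). Vwf, the adhesive glycoprotein of Weibel-Palade bodies, was at 65.6 against 151 CPM (-1.21). The others past 2-fold were Csf2rb (-1.17), a cytokine receptor chain, and Il6st (-1.09), the gp130 receptor subunit. As means over cells, Vwf (-0.61) and Il6st (-0.80) were under 2-fold, as was Csf2rb in cells with no selectin UMI (-0.47). Nr2f2 (-0.60), Ephb4 (-0.54) and Vcam1 (-0.45) were lower by less than 2-fold. Vcam1 was detected in 25 of 53 selectin-low and 121 of 150 selectin-positive cells. Without Selp and Sele, single cells ran from 2.12 to 59.4 UMIs per 10000 in OTM selectin-low and from 6.49 to 132 in OTM selectin-positive cells.

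**Figure D4:**
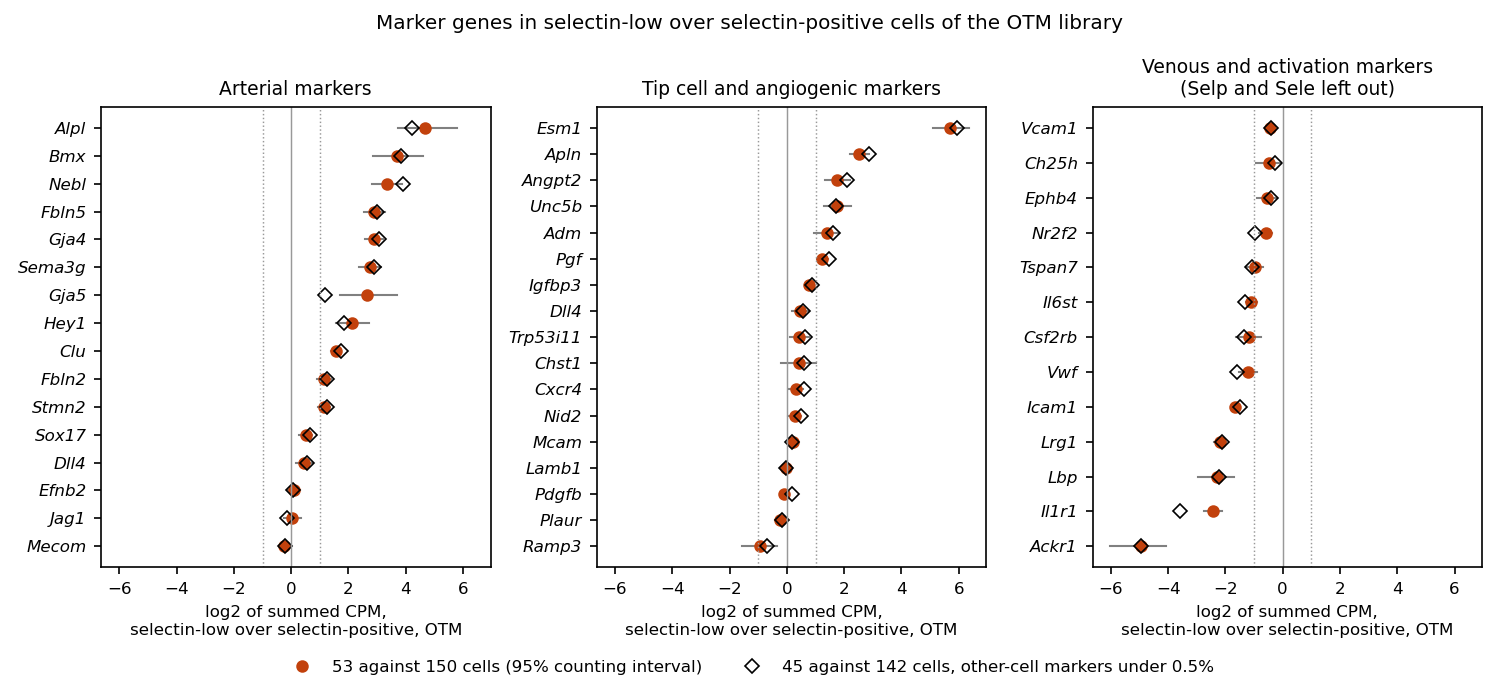
Log2 ratio of summed CPM, selectin-low over selectin-positive OTM cells, for comparable genes of the arterial, tip cell and venous lists; circles are 53 against 150 cells with 95% counting intervals, diamonds 45 against 142 cells after leaving out cells with 0.5% or more of other types' markers, and dotted lines mark 2-fold. Arterial genes lie mostly right of 0, up to 4.68 for Alpl, and venous genes left of it, down to -4.95 for Ackr1.

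Capillary markers did not separate the groups: of 9 comparable genes none was 2-fold apart, and the median log2 ratio was -0.13. The counts of this paragraph stand beside 4.77% of all genes higher and 4.45% lower. Plvap, the diaphragm protein of fenestrae, stood at 823 CPM in selectin-low and 1050.0 CPM in selectin-positive cells (-0.35). Sparcl1 was just under 2-fold higher, at 1085 against 551 CPM (0.98). Car4 and Aqp7, capillary genes of other organs, had no UMI in either group. Of 7 comparable sinusoidal and type H markers, Emcn, a rule gene and the endomucin of bone capillaries, was lower at 739 against 1548 CPM (-1.07). Gpm6a, a membrane glycoprotein, was also lower (-1.62), and Lyve1 was higher with 31 UMIs in 7 cells against 16 UMIs in 6 cells (2.56). Of 4 comparable lymphatic genes Lyve1 was higher and Prox1 lower (-1.16). Among pan-endothelial genes, Cldn5 was the only one at least 2-fold higher, at 452 against 147 CPM (1.62, 1.46 to 1.77). Thinned, Cldn5 was detected in 52.9% of selectin-low, 28.1% of selectin-positive and 0.104% of non-endothelial cells.

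With counts under 3 UMIs set to 3, the 15 genes ranked highest by ratio among comparable genes outside the marker lists of other cell types were Esm1, Eps8l2, Scara3, Lin7a, Crispld2, Slit3, Ddr1, B3galt1, Npr3, Slit2, Gpc6, Osbp2, Ubash3a, Thsd4 and Bmpr1a. Several rested on cluster 3. Lin7a had 24 UMIs against 1, and neither it nor Gpc6 kept a single selectin-low UMI once the cells carrying other types' markers were left out. Crispld2 had 202 UMIs against 26 with those cells and 1 against 7 without them, and Bmpr1a, a BMP type I receptor, kept 3 UMIs. Others stayed past 2-fold in the 45 remaining cells. Eps8l2, an actin-capping protein, was at 5.07 and 5.59 without those cells. Npr3, the natriuretic peptide clearance receptor, was at 4.16 and 4.06, and Ddr1, a collagen receptor kinase, at 4.25 and 4.47. Slit3, a ligand of Robo receptors, was at 4.41 and 3.24, and the related Slit2 at 4.04 and 1.56, the last on 4 against 5 UMIs.

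At the other end, below Selp, Sele and Ackr1, stood F5, Cmah, Robo2, Serpinb1a, Cfb, Ctnnal1, Tll1, Tnfrsf11a, Olr1, Mctp1, Fhit and Serpina3g. F5 (GRCm38, chr1:164151838-164220277, plus strand), coagulation factor V, lies directly downstream of Selp on the same strand. It had 0 UMIs in 53 selectin-low cells and 224 UMIs in 53 of 150 selectin-positive cells. With the 0 set to 3 UMIs over the group, a set floor and no bound, F5 was 24.5-fold lower. Whether reads of one gene were counted for the other was not tested. Mctp1, a C2-domain membrane protein, was the most abundant, with 198 CPM in selectin-low and 1635 CPM in selectin-positive cells (log2 ratio -3.05, -3.22 to -2.88). Its ratio without the cells carrying other types' markers was -3.09, and in the control library it was -1.68. Serpinb1a, an inhibitor of neutrophil serine proteases, had 30 UMIs against 1350 (-3.88) in OTM, but the control library ran the other way (1.86). Tnfrsf11a (GRCm38, chr1:105780718-105847981, plus strand), which encodes RANK, the receptor for the osteoclast factor RANKL, had 8 UMIs in 2 selectin-low and 219 UMIs in 54 selectin-positive cells (-3.17, -4.40 to -2.16). Cfb, complement factor B, had a log2 ratio of -3.62. Olr1, the oxidised LDL receptor, had 1 UMI against 78 (-4.68; -0.82 when thinned). Fhit had 4 UMIs against 87 (-2.83), and its ratio turned direction when cells were thinned and gated anew.

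Signalling lists were shifted less, and their counts stand beside 4.77% of all 9286 genes higher and 4.45% lower. Among 15 comparable Notch pathway genes 6 were higher by 2-fold or more and none was lower (median log2 ratio 0.32). Without the cells carrying other types' markers, 4 of 13 were higher and 1 lower, beside 3.65% and 6.50% of all 8696 genes. The receptor Notch4 of endothelium was at 80.6 CPM in selectin-low and 36.8 CPM in selectin-positive cells (1.13), the ligand Jag2 at 80.6 against 31.8 CPM (1.34), and Nrarp, a Notch feedback gene, at 77.4 against 16.6 CPM (2.22). Notch3, the mural receptor (3.59), stood at 557 CPM in cluster 3, and all Heyl UMIs of the members were there. Notch1 differed little (0.23).

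Among VEGF and angiopoietin genes, 3 of 14 were higher (Pgf, Angpt2 and Vegfa) and 1 lower, with a median of -0.17. Vegfa had 70 UMIs in 18 selectin-low and 72 UMIs in 39 selectin-positive cells (1.57). Nrp2, a co-receptor of venous and lymphatic endothelium, stood at 144 against 383 CPM (-1.41). The receptors Kdr (-0.03) and Flt1 (-0.17) were close to equal, and Tek, the Tie2 receptor, was at 166 against 299 CPM (-0.85). In apelin, adrenomedullin and endothelin signalling, 4 of 10 genes were higher and 1 lower (median 0.25). Edn1, the vasoconstrictor endothelin 1, was at 258 against 109 CPM (1.23) and its receptor Ednrb at 49.2 against 22.4 CPM (1.14). Aplnr went the other way from its ligand, at 82.6 against 171 CPM (-1.05; -0.73 without the cells carrying other types' markers).

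TGF-beta and BMP genes had a median of 0.10. Beside 4.77% of all genes, 2 of 19 were at least 2-fold higher: the ligand Tgfb2 (1.60) and the inhibitory Smad6 (1.17). The BMP targets Id1 and Id3 were at 430.0 and 987 CPM in selectin-low and 259 and 581 CPM in selectin-positive cells. No endothelial transcription factor of 19 was 2-fold apart (median -0.27); Tcf4, the most abundant, was at 1709 against 2548 CPM. Nor was any of 10 shear stress and quiescence genes (median 0.12), among them Klf2 (0.33), Klf4 (0.07) and the nitric oxide synthase Nos3 (0.38).

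Of 15 junction genes, Cldn5, Gja4 and Gja5 were higher and none lower (median 0.15). The counts of this paragraph stand beside 4.77% of all genes higher and 4.45% lower. No gene of caveolae and fenestrae was 2-fold apart (10 genes, median 0.00). Of 16 basement membrane genes (median -0.01), only Fn1, fibronectin, was at least 2-fold higher, at 297 CPM in selectin-low and 51.2 CPM in selectin-positive cells (2.54, 2.31 to 2.77; 2.48 without the cells carrying other types' markers). Among 20 angiogenic proteases and integrins (median 0.06), the collagen-binding integrin gene Itga1 (2.05), the protease inhibitor Timp3 (1.35) and Itgb3 (1.06) were higher and Itga2 (-1.03) lower. Of 12 coagulation genes 2 were lower, Vwf and F8 (-1.39). Of 14 leukocyte adhesion genes (median -0.10), Icam1 and Ackr1 were lower and Cd44 was higher (1.52, with 211 CPM in cluster 3; 0.96 without the cells carrying other types' markers).

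Chemokines and cytokines were split. Among 12 comparable genes 3 were higher and 6 were lower by 2-fold or more (median -1.11), and 2 were higher and 4 lower of 11 without the cells carrying other types' markers. These counts stand beside 4.77% of all genes higher and 4.45% lower, and 3.65% and 6.50% without those cells. Cxcl1, which draws neutrophils, was lower at 574 CPM in selectin-low and 1206 CPM in selectin-positive cells (-1.07; -0.90 without the cells carrying other types' markers). Ccl2, which draws monocytes, was lower at 337 against 1177 CPM (-1.80), and so were Cxcl10 (-2.26), the granulocyte factor Csf3 (-1.90), the macrophage factor Csf1 (-1.26) and Tnfsf10 (-1.14). Ccl2 was still detected in 17 of 53 selectin-low cells, 7 of them in cluster 1, but 1 cell of that cluster held 53.3% of the 514 UMIs. Higher were Il6 at 159 against 47.3 CPM (1.75), the membrane-bound chemokine Cx3cl1 (1.23) and Cxcl12, a niche chemokine, at 248 against 110.3 CPM (1.17; 0.99 without the cells carrying other types' markers). The Il6 level was 348 CPM in cluster 3 and 253 CPM in cluster 0.

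Signals to bone cells gave 5 higher and 1 lower of 13 comparable genes (median 0.47), but 1 higher and 2 lower of 12 without the cells carrying other types' markers. All genes gave 4.77% higher and 4.45% lower, and 3.65% and 6.50% without those cells. Higher were Edn1, Cxcl12, Slit3, Igf2 (2.52) and the Wnt modulator Dkk2 (1.30), and lower was Csf1, which osteoclast precursors need. Tnfsf11, which encodes RANKL, had 3 UMIs in 1 selectin-low cell. Kitl, the ligand of the stem cell receptor Kit, was at 459.5 against 674 CPM (-0.55). Of 14 NF-kB feedback genes (median -0.42), Icam1 and Nfkbiz (-1.13) were lower and Tnfaip2 (1.02) was higher. Of 15 interferon genes (median -0.24), Rsad2 was higher (1.11) and Iigp1 lower (-1.01), beside 4.77% and 4.45% of all genes. Of 10 MHC class I genes H2-T23 was lower (-1.38). MHC class II genes were detected in too few cells to be compared gene by gene; they summed to 43.3 CPM in selectin-low and 281 CPM in selectin-positive cells.

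Of 17 cell cycle genes (median 0.41), 3 were higher, beside 4.77% of all genes: Cdk1 (1.43), Rrm2 (1.78) and Tyms (1.02). Mki67 went the other way, in 8 of 53 selectin-low and 34 of 150 selectin-positive cells (-0.82). Of 18 hypoxia and glycolysis genes (median 0.37), Hk2 (1.56), Vegfa and Adm (under 2-fold in the alternatives given above) were higher, while Gapdh (0.39) and Slc2a1 (-0.03) were under 2-fold. Of 8 fatty acid handling genes none was 2-fold apart. The 20 immediate early and dissociation genes, which digestion can induce, summed to 14088 CPM in selectin-low and 13959 CPM in selectin-positive cells, and none was 2-fold apart (median 0.07).

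The control library contributed 3 selectin-low cells, and they differed from each other. The first had 31794 UMIs, fell in cluster 0 and carried 200 UMIs of Esm1, 15 of Apln and 18 of Angpt2. Its Esm1 level, 62.9 UMIs per 10000, was above every OTM member, of which the highest had 34.0. The second, with 34774 UMIs in cluster 2, had 51 UMIs of Prox1, the master transcription factor of lymphatic endothelium, 63 of Reln, 48 of Mmrn1, 27 of Flt4 (the VEGF-C receptor) and 747 of Ccl21a, a lymphatic chemokine with near-identical gene copies. It had no UMI of Flt1 or Igfbp7. The third, with 15484 UMIs in cluster 0, had 25 UMIs of Clu, 3 of Gja4, 24 of Icam1 and 162 of Vim. No OTM member resembled the second cell in these genes: Prox1 had 17 UMIs spread over 11 OTM members, Reln had 0 and Mmrn1 had 1.

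Between the libraries, 2680 genes could be compared in selectin-low cells, 472 of them (17.6%) at least 2-fold higher in OTM and 17 (0.634%) at least 2-fold lower. The OTM pool was 18.6-fold larger in UMIs, so a minimum of 20 UMIs in the higher group was reached at a far lower level in OTM than in control, and more genes could be called higher than lower. The higher group also needed a UMI in at least 10% and at least 3 of its cells. This meant all 3 control cells, the Prox1 cell among them, but only 10% of the 53 OTM cells. The median log2 ratio was 0.45 over those 2680 genes and -0.47 over the 8360 genes with at least 20 UMIs in both libraries together. Without the Prox1 control cell, the counts were 274 and 0. That left 2 control cells, fewer than the 3 detecting cells required, so no gene could be called lower and the 0 says nothing about that cell. Scaling by the median ratio of genes, which was -0.33 on the log2 scale, moved all ratios up by that amount and gave 955 higher and 4 lower, so the ratios below stand beside that shift.

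Among the 10 genes ranked highest in OTM over control were Slc6a6, Mt1, Bgn, Stmn1, Pdgfa, Fn1, Lgals1 and S100a4. Fn1 had 453 OTM UMIs and 1 control UMI (log2 ratio 4.61, 2.12 to 9.91). The 34 of 53 OTM cells with an Fn1 UMI were all above the 3 control cells. Genes were ranked on these same cells, so such cell counts, here and below, only describe the ratio. Pdgfa, a growth factor for mesenchymal cells, had 656 and 4 UMIs (3.14, 1.78 to 5.02). With cells thinned and gated anew, 78 in OTM and 6 in control, the log2 ratio of Pdgfa was 0.35. Mt1, a metallothionein, had 518 UMIs in OTM and none in control. It was 9.29-fold higher with the 0 set to 3 UMIs over the group, a set floor and no bound. Bgn, the proteoglycan biglycan, had 516 and 2 UMIs, but its level was 1144 CPM in cluster 3 and 52.8 CPM in cluster 0.

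The selectin-positive cells gave a second pair of pools, 150 OTM against 12 control cells. There Slc6a6, the taurine transporter, was also higher (2.50, 1.78 to 3.35), as were Pdgfa (1.22) and Stmn1, stathmin (1.18). Lgals1, galectin 1 (0.02), and S100a4 (0.75) were within 2-fold in selectin-positive cells. Mt1 (-0.63) and Bgn (-1.20) pointed the other way. Whether the ratios of selectin-low and selectin-positive cells differed was not tested.

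The 10 lowest genes were Cdk8, Aqp1, Shank3, Insr, Ier2, Pim3, Picalm, Dock4, Cmss1 and Rasa1. Cdk8, a kinase of the Mediator complex, stood at 139.6 CPM in OTM and 548 CPM in control (-1.97, -2.44 to -1.48). As was required of every gene called lower here, all 3 control cells had it. They stood at 4.09, 6.33 and 6.46 UMIs per 10000, and 47 of 53 OTM cells were below the lowest of them. Its ratio in selectin-positive cells was -1.65. Aqp1, the water channel of endothelium, stood at 254 against 914 CPM (-1.85, -2.21 to -1.47), with 46 of 53 OTM cells below all control cells and a ratio of -0.80 in selectin-positive cells. Pim3 (-1.29 in selectin-low, -1.16 in selectin-positive cells) and Cmss1 (-1.25 and -1.46) were lower by 2-fold or more in both, and Insr, the insulin receptor, was at -1.52 and -0.17. Picalm (-1.26 and 0.98) and Dock4 (-1.25 and 0.88) differed in sign between selectin-low and selectin-positive cells. With median ratio scaling, Ier2 (-0.97), Pim3 (-0.95), Picalm (-0.93), Dock4 (-0.92), Cmss1 (-0.92) and Rasa1 (-0.86) were under 2-fold in selectin-low cells, and when thinned Dock4 was at -0.17 and Rasa1 at -0.21.

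**Figure D5:**
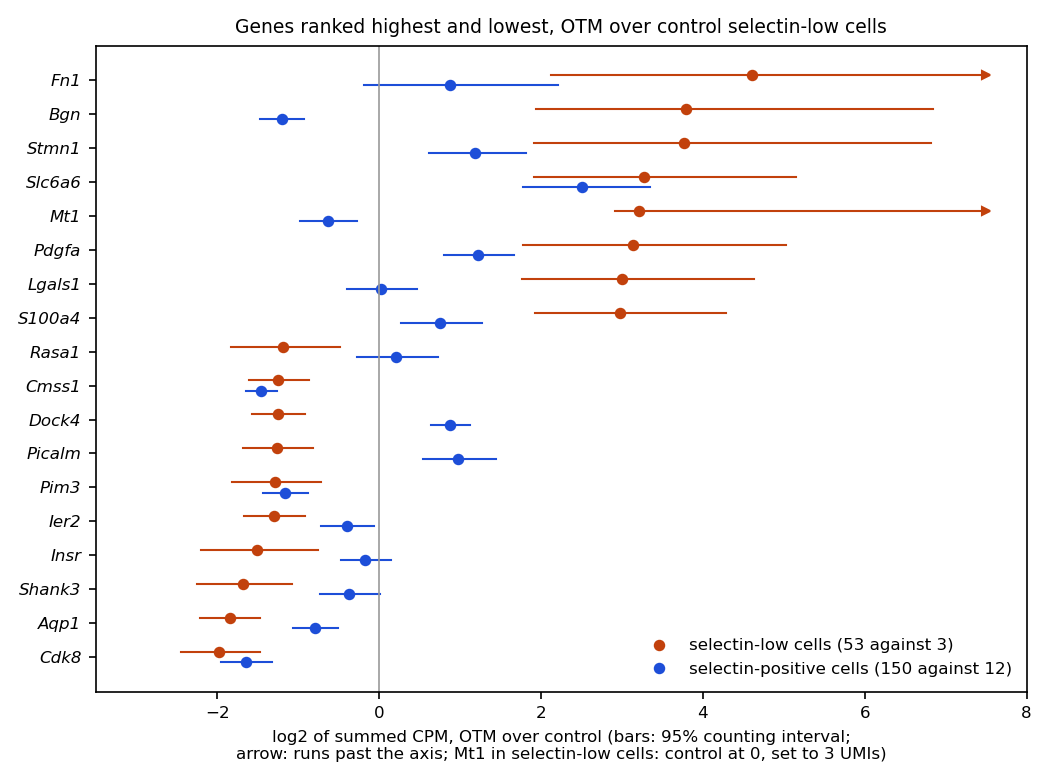
Log2 ratio of summed CPM, OTM over control, for genes ranked highest and lowest in selectin-low cells (orange-red, 53 against 3 cells) with the same ratio in selectin-positive cells (blue, 150 against 12 cells); bars are 95% counting intervals and arrows run past the axis. Cdk8, Pim3 and Cmss1 lie left of -1 in both kinds of cell, while Mt1 and Bgn lie right of 0 in selectin-low and left of it in selectin-positive cells.

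By list, values of the control library leaned on single cells. Tip cell markers summed to 3155 CPM in OTM and 5155 CPM in control, with Esm1 at 265 against 2559 CPM, nearly all from the first control cell. Lymphatic markers summed to 103 CPM in OTM and 2681 CPM in control, nearly all from the second. These sums leave out Ccl21a, whose symbol is repeated among the identifiers and which had 747 UMIs in the second control cell. Arterial markers summed to 2229 CPM in OTM and 2096 CPM in control, and 4 of 10 comparable genes were at least 2-fold higher in OTM, against 17.6% of all 2680 genes. Venous and activation markers without Selp and Sele summed to 1506 CPM in OTM and 1865 CPM in control. Of 16 comparable angiogenic protease and integrin genes 7 were at least 2-fold higher in OTM, against the same 17.6%, and none lower (median 0.76 over the 20 genes with at least 20 UMIs). Cell cycle genes summed to 2402 CPM in OTM and 999 CPM in control, and 13 of the 20 had no UMI in the control cells. A count of 0 in this small pool allows up to 45.0 CPM, and the 13 genes stood at 10.5 to 88.5 CPM in OTM. Whether cycling cells were absent in control was not tested. Vcam1 had 398 UMIs in 25 OTM members and none in the 3 control cells. Neutrophil markers were at 33.4 CPM in OTM and 195.0 CPM in control, and immediate early and dissociation genes at 14088 and 16294 CPM. Mural cell markers summed to 2544 CPM in OTM and 36.6 CPM in control, with 10 of 12 at 0 in control, and without the cells carrying other types' markers the OTM over control counts were 508 higher and 16 lower genes.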

How the data were processed

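Single cells of the mouse periodontal ligament were profiled in 2 libraries with 10x 3′ v3.1 chemistry. The authors deposited filtered matrices of UMI counts per gene and cell, per the file headers; Cell Ranger 7.0.1, Seurat and the builds mm10 and GRCm38 are named in the submitters' processing notes, with no step assigned. Raw counts of 32285 genes were used (38 repeated symbols were kept apart by identifier), and positions came from GENCODE M21, which held 32158 of the identifiers. The members and the 39 gene lists were chosen with earlier results of these data known.

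Cells were kept and selected by the thresholds given in the report. Counts were summed over the cells of a group and scaled to CPM; ratios carry conditional binomial intervals, shares Clopper-Pearson intervals and their difference a Newcombe interval, all for counting error only. No p-value is given, since each group is 1 library. Depth ranged from 2526 to 107349 UMIs over the OTM members. Clustering used counts scaled to 10000 and logged, 1500 variable genes, 15 components, 10 neighbours and Leiden at resolution 0.8. Named genes are the 20 most abundant in OTM members without mitochondrial and ribosomal protein genes, the 15 highest and 15 lowest ratios of selectin-low over selectin-positive cells and the 10 highest and 10 lowest of OTM over control, without mitochondrial, ribosomal, haemoglobin, unnamed, Xist, Y-linked and other-cell-type genes and with the higher group at 10% or more of the non-endothelial CPM, the leading genes of clusters, the rule genes, and from each list the most abundant members and those at least 2-fold apart; some genes that this rule selects are not reported here, and further list genes named in the text were chosen after their values were seen. Alternatives changed the cell filters, the endothelial and selectin limits, doublet treatment, scaling, depth and UMI minimum. Ratios were tested on simulated data. Python 3.11.15, numpy 2.4.6, scipy 1.17.1, pandas 2.3.3, scanpy 1.11.5, leidenalg 0.10.2 and matplotlib 3.10.9 were used.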

Additional observations from a re-analysis of the deposited data

How the results depend on the processing

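The higher share of selectin-low endothelial cells in OTM than in control kept its direction under every alternative run, with a difference between 1.76 points (cells with no selectin UMI) and 4.05 points (cells thinned to 5000 UMIs). Genes at least 2-fold higher in selectin-low than in selectin-positive OTM cells (443) numbered 242 with no selectin UMI allowed, 154 when thinned, 208 with a minimum of 50 UMIs and 840 with a minimum of 3 UMIs. Genes at least 2-fold lower (413) numbered 243 when thinned and 258 with a minimum of 50 UMIs. Genes at least 2-fold higher in OTM than in control (472) numbered 123 when thinned, 275 without the deepest cell of each group and 955 with median ratio scaling. Genes at least 2-fold lower in OTM (17) numbered 0 with no selectin UMI allowed, 45 with fewer than 6 selectin UMIs, 4 with median ratio scaling, 8 with a minimum of 50 UMIs, 213 with a minimum of 3 UMIs and 0 without the deepest cell of each group. A higher minimum compares fewer genes. Thinning leaves fewer UMIs and was done before the gate, which gave 78 OTM and 6 control selectin-low cells. Allowing no selectin UMI, leaving out the deepest cells and leaving out members with at least 10 Prox1 UMIs each left 2 control selectin-low cells. A gene lower in OTM needed 3 detecting control cells, so 0 lower genes was the only possible count in these settings. The cause of the remaining moves was not tested. Chosen after seeing the data, leaving out cells with 0.5% or more of other types' markers gave 317 higher and 565 lower genes for selectin-low over selectin-positive cells, 508 higher and 16 lower for OTM over control and a share difference of 2.33 points, and leaving out members with at least 10 Prox1 UMIs gave 274 higher and 0 lower for OTM over control and a share difference of 3.18 points. Of the named genes over 17 alternatives, 318 ratios of OTM over control stayed within their counting interval and 22 moved outside it; for selectin-low over selectin-positive cells 781 stayed, 112 moved and 1 reversed (Fhit, log2 ratio 2.06 when thinned), with counts under 3 UMIs set to 3; as counted, Crispld2 also turned, with 1 against 7 UMIs once cells with other types' markers were left out. Clustering at resolution 0.5 gave 4 clusters and at 1.2 gave 7. No paired analysis was possible because each group is 1 library, and no replicate could be left out. The 3 control cells, 82052 UMIs in all, limit every comparison of OTM with control.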

Other observations

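The members showed combinations of markers within single cells. Of the 9 OTM members with Apln and the 21 with Aplnr, its receptor, 5 had both. Gja4 and Aplnr were seen together in 6 of 53 cells, and Gja4 and Lbp in 6, while no cell had both Apln and Lbp, of 9 with Apln and 13 with Lbp. Mki67 and Apln were seen together in 3 cells, of 8 with Mki67. Esm1 was detected in 10 OTM members, 7 of them in cluster 1 and 3 in cluster 0. Lyve1, a hyaluronan receptor of lymphatic and sinusoidal endothelium, was detected in 7 OTM members, 6 of them in cluster 1. Vcam1 was detected in 12 of the 17 OTM cells of cluster 0, 5 of 18 in cluster 1, 2 of 11 in cluster 2 and 6 of 7 in cluster 3.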
